A study of Mus musculus with 16 samples.

Results

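The 10 genes described here encode the enzymes of de novo purine synthesis: *Ppat*, *Gart*, *Pfas*, *Paics*, *Adsl*, *Atic*, *Impdh1*, *Impdh2*, *Gmps* and *Adss*. They were taken by gene symbol from the deposited count tables, and all 10 had a row in both tables, among 15386 genes in the RNA-seq table and 13490 genes in the m6A table. All 10 also passed the filter on low counts in both, among 11979 and 11447 genes tested.

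De novo synthesis builds the purine ring on phosphoribosyl pyrophosphate (PRPP). Nitrogen comes from glutamine, glycine and aspartate, and carbon from glycine, carbon dioxide and formyl groups carried by folate. The product is inosine monophosphate (IMP), from which one branch leads to AMP and the other to GMP. Dividing cells such as erythroid progenitors draw on this pathway for DNA and RNA, and several of its enzymes are multifunctional, so that fewer genes than reactions are needed.

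RNA-seq was performed on CFU-E cells, the erythroid progenitors that precede proerythroblasts, sorted from mouse bone marrow as Kit+CD71+ cells without markers of other lineages. It covered 3 libraries of control CFU-E and 3 of CFU-E Kit-lo cells, a population with very little surface Kit, from *Mettl3* fl/fl *EpoR* Cre/- mice. *Mettl3* encodes the catalytic subunit of the enzyme that writes N6-methyladenosine (m6A) on mRNA, and m6A was measured in control CFU-E with 2 libraries of anti-m6A immunoprecipitates (IP) and 2 input libraries. All mice were C57BL/6, aged 10 to 16 weeks and of both sexes. The Cre is driven by *EpoR* and recombines in erythroid cells and in the macrophages of erythroblastic islands. The genotype of the controls was not given in the sources used here. The RNA-seq groups differed in genotype and in the Kit gate together, so that the effects of these cannot be told apart, and control Kit-lo cells were not analysed here. The labels number the replicates without saying that they came from separate mice, and p-values therefore measure the spread between these libraries, which may be technical.

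Library totals ran from 17429262 to 21329242 estimated counts in the RNA-seq and from 19421059 to 37142742 in the m6A experiment, and levels below are CPM (counts scaled to a common library size) after TMM normalisation. *Kit* mRNA was 544 to 629 CPM in the control and 44.0 to 68.5 CPM in the Kit-lo libraries, the gene whose product set the gate. *Mettl3* mRNA was 115, 123.5 and 130 CPM in the control libraries and 117, 127 and 108 CPM in those labelled *Mettl3*-deficient, a log2 fold change of -0.07 (SE 0.10, adjusted p = 0.63 by the quasi-likelihood test of edgeR, adjusted after Benjamini and Hochberg). The counts do not separate the deleted exons from the rest of the transcript, and *Mettl3* shares 933 exonic bases with *Tox4* on the opposite strand, so that this value checks neither the deletion nor the label. The deletion was measured otherwise in the paper. It reports *Mettl3* mRNA absent by qRT-PCR, the protein absent by Western blot and total m6A lower in erythroid cells of these mice. The 9 erythroid markers, all in the table, summed to 2527 to 2654 CPM in the control and 4328 to 5048 CPM in the Kit-lo libraries. The markers differed widely within this sum: the Kit-lo mean was 31.8-fold the control mean for *Hba-a1*, 47.4-fold for *Alas2*, 87.2-fold for *Hbb-bt* and 156-fold for *Slc4a1*, against 1.05-fold for *Gata1* and 0.91-fold for *Tfrc*. Macrophage markers (8 of 9 in the table) summed to 19.7 to 24.5 and 12.0 to 14.5 CPM. *Adgre1* had 2 counts in each control library and 0 in each Kit-lo library, too few to compare. Mean *Cd163* was 13.5 CPM in control and 6.36 CPM in Kit-lo. The means of *C1qa*, *C1qb* and *Siglec1* were also lower in Kit-lo, whereas those of *Csf1r*, *Cd68* and *Mrc1* were higher. Granulocyte markers (7 of 8) summed to 25.5 to 37.4 and 15.0 to 23.2 CPM. The means of *Mpo* (19.6 and 5.01 CPM) and *Elane* were lower in Kit-lo, whereas those of *Prtn3*, *S100a8*, *S100a9*, *Ngp* and *Camp* were higher. Megakaryocyte markers (4 of 5) summed to 13.1 to 20.4 and 20.0 to 25.9 CPM, with *Pf4* lower and *Gp9*, *Itga2b* and *Vwf* higher. Lymphoid markers (4 of 5) summed to 2.58 to 3.26 and 2.23 to 3.02 CPM, with *Ms4a1* and *Cd3d* lower and *Cd79a* and *Cd3e* higher. Of the 9 erythroid markers, 8 had a row in the m6A table (*Slc4a1* had none) and summed to 2941 to 3589 CPM in input. The part of these shifts in the results on purine genes was not tested.

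The sequences shown first are promoters, printed because 2 of these genes, *Impdh2* and *Adss*, met both thresholds of the RNA-seq comparison and because *Impdh2* shares with *Paics* and *Atic* the letters CACGTG, the core E-box bound by Myc and its partner Max. Promoters are RefSeq windows on GRCm38.p6, 250 bases before to 50 bases after the start site, read 5′ to 3′ on the gene's strand, and 9 of the 10 genes had one. CACGTG, which reads the same on both strands, occurred in 3 of the 9 and in 7.15% of 32851 promoters of the same length, and capitals mark it.
Impdh2, chr9:108560186-108560485, plus strand: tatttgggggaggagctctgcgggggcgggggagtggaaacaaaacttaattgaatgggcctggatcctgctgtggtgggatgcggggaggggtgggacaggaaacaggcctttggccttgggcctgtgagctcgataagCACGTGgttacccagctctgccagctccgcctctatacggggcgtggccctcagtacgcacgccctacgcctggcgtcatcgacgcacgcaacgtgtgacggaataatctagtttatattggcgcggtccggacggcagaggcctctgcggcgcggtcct
Paics, chr5:76951052-76951351, plus strand: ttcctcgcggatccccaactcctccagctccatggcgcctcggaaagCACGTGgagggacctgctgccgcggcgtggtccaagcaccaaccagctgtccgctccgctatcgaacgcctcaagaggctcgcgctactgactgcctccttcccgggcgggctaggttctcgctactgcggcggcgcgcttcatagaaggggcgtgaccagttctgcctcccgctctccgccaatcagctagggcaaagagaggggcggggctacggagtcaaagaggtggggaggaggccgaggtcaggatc
Atic, chr1:71556906-71557205, plus strand: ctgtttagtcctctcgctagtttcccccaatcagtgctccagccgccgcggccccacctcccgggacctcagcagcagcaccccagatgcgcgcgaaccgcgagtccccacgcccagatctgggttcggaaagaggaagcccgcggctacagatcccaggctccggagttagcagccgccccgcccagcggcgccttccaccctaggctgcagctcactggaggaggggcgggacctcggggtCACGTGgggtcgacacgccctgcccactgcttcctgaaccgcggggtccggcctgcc
Adss, chr1:177796460-177796759, minus strand: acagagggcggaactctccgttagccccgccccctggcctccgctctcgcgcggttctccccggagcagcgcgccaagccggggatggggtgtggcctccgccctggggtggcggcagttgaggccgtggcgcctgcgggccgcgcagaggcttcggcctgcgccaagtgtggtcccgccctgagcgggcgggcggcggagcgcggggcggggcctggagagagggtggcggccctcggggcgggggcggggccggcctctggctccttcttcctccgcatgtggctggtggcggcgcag
The E-box began at position -110 from the start site in *Impdh2*, -203 in *Paics* and -7 in *Atic*. The *Adss* window held no CACGTG but 9 matches to GGGCGG, the letters of a GC box, counted on both strands. GGGCGG occurred in all 9 of these genes and in 35.7% of all promoters, and CCAAT on either strand in 4 of 9 and in 37.4%. These are letter matches only, and binding was not measured.

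In the genome (GRCm38, GENCODE annotation) the genes lie on 8 chromosomes. *Ppat* (chr5:76913249-76951578, minus strand) and *Paics* (chr5:76951307-76967509, plus strand) stand head to head and share 272 exonic bases at their 5′ ends. *Atic* (chr1:71557150-71579631, plus strand) and *Adss* (chr1:177762962-177796511, minus strand) are far apart on the same chromosome. The others are *Gart* (chr16:91621186-91646952, minus strand), *Pfas* (chr11:68985697-69008460, minus strand), *Adsl* (chr15:80948490-80970946, plus strand), *Impdh1* (chr6:29200434-29216364, minus strand), *Impdh2* (chr9:108560286-108565584, plus strand) and *Gmps* (chr3:63976106-64022579, plus strand).

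Counts of some of these genes could be shared with other transcripts. Of the 31-base words of the longest coding transcript, 78.3% in *Impdh2* recurred in other genes, and 77.3% recurred in the processed pseudogene *Impdh2-ps*, whose counts were not analysed here. The shared part was 21.9% in *Paics*, 9.87% of its words being in *Ppat*, and 16.3% in *Gart*, all in its antisense transcript *Gm15964*. It was 6.25% or less in the other 7 genes and 0 in *Adss* and *Impdh1*. The recurring words were spread over 2096 other genes for *Pfas* (1.92% of its words) and 1349 for *Adsl* (3.64%). The part of such words in the counts was not tested. The strand used in counting was not stated, so that reads of *Gart* and *Gm15964*, or of *Ppat* and *Paics* where they overlap, cannot be told apart.

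The question put to the RNA-seq was how each step of the pathway differed between CFU-E Kit-lo and control CFU-E. The mRNA of 2 of the 10 genes was lower by at least 1.5-fold at an adjusted p under 0.05 (9.83% of all genes tested), and none was higher by these criteria (12.1% of all genes tested). On the adjusted p alone, 6 of 10 were lower (16.9% of all genes tested) and 0 were higher (17.6% of all genes tested) by edgeR. Higher genes also numbered 0 at an unadjusted p under 0.05 and 0 by DESeq2. The 6 lower genes were *Gart*, *Paics*, *Adsl*, *Impdh2*, *Gmps* and *Adss*, and on the same criterion DESeq2 called these and *Atic*. In the same 6 genes every Kit-lo library lay below every control library, as in 24% of all genes tested. The median log2 fold change was -0.34 over the 10 genes and 0.01 over all genes tested. At an adjusted p under 0.05, 4 genes (*Gart*, *Impdh2*, *Gmps* and *Adss*) were lower whichever single library was left out. The shares of all genes for the DESeq2, unadjusted and leave-one-out counts were not computed. Nothing particular to these genes can therefore be read from those counts. In bulk RNA, fewer cells of a type and less RNA per cell cannot be told apart.

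**Figure D1:**
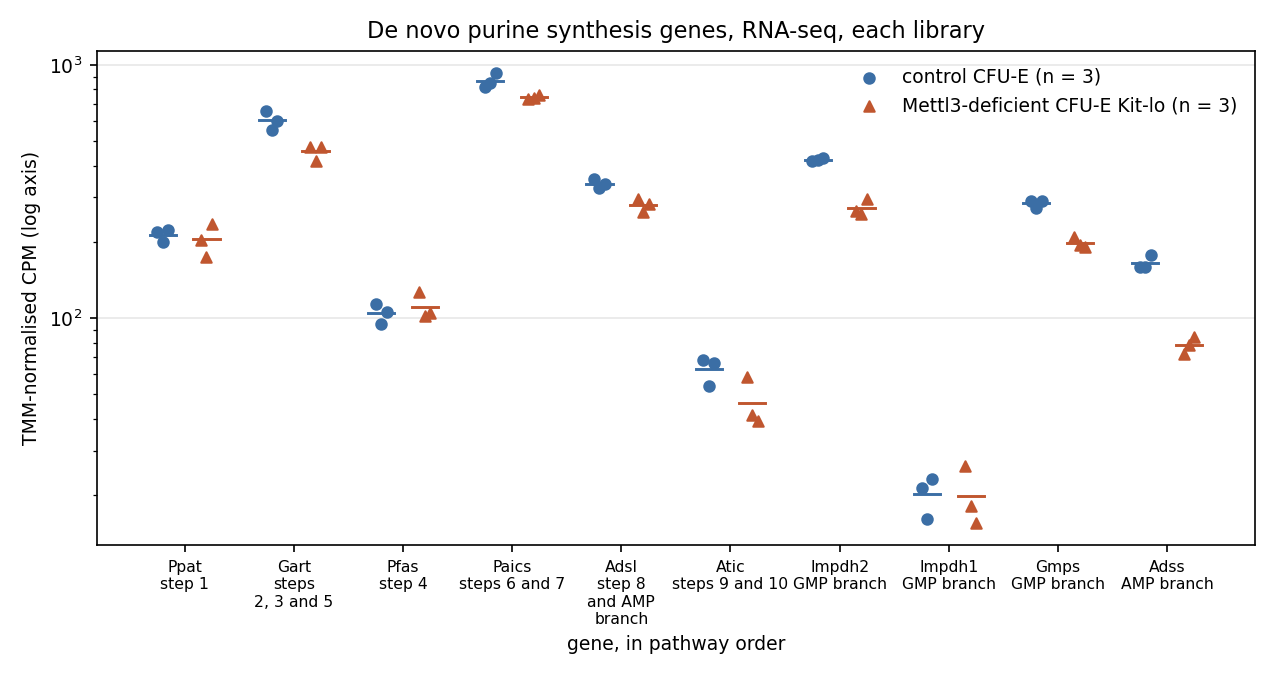
Level of each de novo purine synthesis gene in each RNA-seq library, in TMM-normalised CPM on a log axis, with genes in pathway order; circles are the 3 control CFU-E libraries, triangles the 3 *Mettl3*-deficient CFU-E Kit-lo libraries, and bars the group means. The groups do not overlap in *Gart*, *Paics*, *Adsl*, *Impdh2*, *Gmps* and *Adss*, and the widest gap is in *Adss*, at 165 against 78.3 CPM.

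The pathway opens with *Ppat*, whose amidotransferase commits PRPP to purine synthesis and is inhibited by its end products. *Ppat* was 218, 199 and 223 CPM in the control libraries and 203, 175 and 236 CPM in the Kit-lo libraries. The groups overlapped, and Kit-lo replicate 3 was the highest of all 6 libraries. The log2 fold change was -0.06 (95% interval -0.31 to 0.19), and the adjusted p was 0.72 by the same edgeR test.

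*Gart* encodes a trifunctional enzyme that carries out steps 2, 3 and 5, and the formyl group of step 3 comes from folate. *Gart* stood at 656, 553.5 and 602 CPM in the control libraries against 474, 419 and 474.5 CPM in the Kit-lo libraries. Each Kit-lo library was below the lowest control library. *Gart* fell by 0.41 on the log2 scale (SE 0.09, adjusted p = 0.0053 by the same edgeR test), short of the fold threshold.

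*Pfas*, the amidotransferase of step 4, showed no change past the test. Its levels were 114, 95.2 and 106 CPM in the control and 127, 102 and 105 CPM in the Kit-lo libraries. The groups overlapped, with a log2 fold change of 0.08 (95% interval -0.17 to 0.34, adjusted p = 0.63 by edgeR). Of the 10 genes it was the one whose estimate lay above 0.

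*Paics*, whose bifunctional enzyme carries out the carboxylation and aspartate addition of steps 6 and 7, had the highest CPM of the 10. Its levels were 817, 846 and 927.5 CPM in the control libraries and 736, 739 and 761 CPM in the Kit-lo libraries. These groups did not overlap, but the gap between them was narrow. *Paics* fell by 0.21 on the log2 scale (SE 0.07, adjusted p = 0.048 by edgeR), and the adjusted p was between 0.059 and 0.17 when any 1 library was left out.

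*Adsl* encodes the lyase that removes fumarate at step 8 and again in the last step to AMP, so that it serves the trunk and the AMP branch. It measured 355.5, 325 and 340 CPM in the control and 297, 262 and 283 CPM in the Kit-lo libraries. All Kit-lo libraries were below all control libraries. *Adsl* fell by 0.28 on the log2 scale (SE 0.08, adjusted p = 0.020 by edgeR), and the adjusted p was 0.088 without control replicate 1, 0.066 without control replicate 3 and 0.096 without Kit-lo replicate 2.

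*Atic*, whose bifunctional enzyme adds the second formyl group and closes the ring to IMP, was 68.7, 53.8 and 66.3 CPM in the control and 58.4, 41.6 and 39.3 CPM in the Kit-lo libraries. Kit-lo replicate 1 lay above control replicate 2, so that the groups overlapped. The log2 fold change was -0.44 (95% interval -0.81 to -0.07), with an adjusted p of 0.067 by edgeR. The value rested on Kit-lo replicate 1, without which it was -0.64 (adjusted p = 0.0053) and past both thresholds.

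IMP dehydrogenase catalyses the first and rate-limiting step from IMP to GMP and has 2 isoenzymes. *Impdh2*, the form induced in proliferating cells, was 416, 421 and 428.5 CPM in the control libraries and 266, 257 and 295 CPM in the Kit-lo libraries. The control libraries lay close together, and all Kit-lo libraries were far below them. *Impdh2* fell by 0.63 on the log2 scale (SE 0.08, adjusted p = 0.000205 by edgeR), which was 35.4% lower. This was close to the fold threshold: without Kit-lo replicate 2 the log2 fold change was -0.56, short of it. The study had itself picked *Impdh2* and *Adss* from these libraries.

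*Impdh1*, the other isoenzyme, had the lowest CPM of the 10, at 21.3, 16.2 and 23.1 CPM in the control and 26.1, 18.1 and 15.6 CPM in the Kit-lo libraries. The groups overlapped fully, and Kit-lo held both the highest and the lowest library. The log2 fold change was -0.02 with a wide 95% interval, from -0.51 to 0.46 (adjusted p = 0.95 by edgeR). The *Impdh2* to *Impdh1* count ratio within a library, which does not depend on normalisation, was 19.5, 26.0 and 18.5 in the control and 10.2, 14.2 and 18.9 in the Kit-lo libraries. Kit-lo replicate 3 lay inside the control range. On the log2 scale the mean ratio was 4.40 ± 0.26 (SD, n = 3) in control and 3.81 ± 0.45 (SD, n = 3) in Kit-lo, a difference of -0.59. An exact two-sided permutation test gave p = 0.2. With 3 libraries a group the smallest possible p was 0.1, so that this test could not pass 0.05 whatever the ratios.

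*Gmps*, which aminates xanthosine monophosphate to GMP, was 291, 273 and 290.5 CPM in the control and 210, 195 and 191 CPM in the Kit-lo libraries. No Kit-lo library came near the control range. *Gmps* fell by 0.52 on the log2 scale (SE 0.08, adjusted p = 0.00061 by edgeR), a fall of 30.2% that did not reach the fold threshold.

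*Adss* encodes the adenylosuccinate synthetase of non-muscle tissue, which adds aspartate to IMP on the way to AMP. It was 159, 159.5 and 178 CPM in the control libraries and 71.9, 78.8 and 84.3 CPM in the Kit-lo libraries. The highest Kit-lo library was well below the lowest control library. *Adss* fell by 1.08 on the log2 scale (SE 0.10, 95% interval -1.29 to -0.86, adjusted p = 2.95e-05 by edgeR). It remained past both thresholds in all 16 alternative analyses, with log2 fold changes from -1.12 to -1.02, and 6.21% of genes tested had a log2 fold change as low or lower. The muscle isoenzyme gene *Adssl1* was too low to be tested, at 0.48, 2.75 and 0.52 CPM in the control and 0.21, 0.39 and 0.42 CPM in the Kit-lo libraries.

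Set out by position in the pathway, the 6 genes that form IMP had a median change of -0.25 on the log2 scale, and 3 of 6 were lower on the adjusted p but 0 were past the fold threshold. *Adsl*, which also serves the AMP branch, was counted with these 6 alone. The 4 genes of the branches had a median of -0.57, with 3 of 4 lower on the adjusted p and 2 of 4 past the fold threshold. Of all genes tested, 16.9% were lower on the adjusted p and 9.83% on both thresholds. Both are counts over few genes, and the difference between them was not tested. Summed over the 10 genes, the level was 2943 to 3185 CPM in the control libraries and 2288 to 2485 CPM in the Kit-lo libraries, and the sums did not overlap.

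Compared per kilobase of the longest coding transcript, so that genes could be ranked within a library, the levels in control CFU-E ran from 348 ± 23.0 CPM per kb for *Paics* to 7.77 ± 1.39 CPM per kb for *Impdh1* (SD, n = 3 each). *Impdh2* was next to *Paics* at 227 ± 3.31, followed by *Gart* at 172 ± 14.5 and *Adsl* at 91.7 ± 4.06 CPM per kb. *Adss* (59.7 ± 3.84), *Ppat* (53.6 ± 3.16), *Gmps* (35.1 ± 1.29), *Atic* (22.1 ± 2.82) and *Pfas* (16.5 ± 1.46) made up the lower part of the order. The ranges over the 3 libraries of neighbouring genes in this order did not meet. In the Kit-lo libraries *Adss*, at 28.3 ± 2.24 CPM per kb, stood below *Ppat*, at 51.4 ± 7.74, whereas it stood above *Ppat* in control. *Pfas* (17.5 ± 2.15) and *Atic* (16.3 ± 3.67) had ranges that met there. The order rests on the transcript length chosen, since with the median coding transcript *Gart* led in control at 449 CPM per kb and *Pfas* rose to 73.9 CPM per kb.

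The genes that feed the pathway or use its products were taken as a list of 26, of which 24 were tested in the RNA-seq. On both thresholds 2 of 24 were lower and 4 of 24 higher, against 9.83% and 12.1% of all genes tested. On the adjusted p alone 8 of 24 were lower and 7 of 24 higher, against 16.9% and 17.6% of all genes tested. Their median log2 fold change was -0.13. The folate cycle held both lower and higher genes. On the adjusted p, the PRPP and salvage groups held only lower genes and the interconversion group only higher ones.

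**Figure D2:**
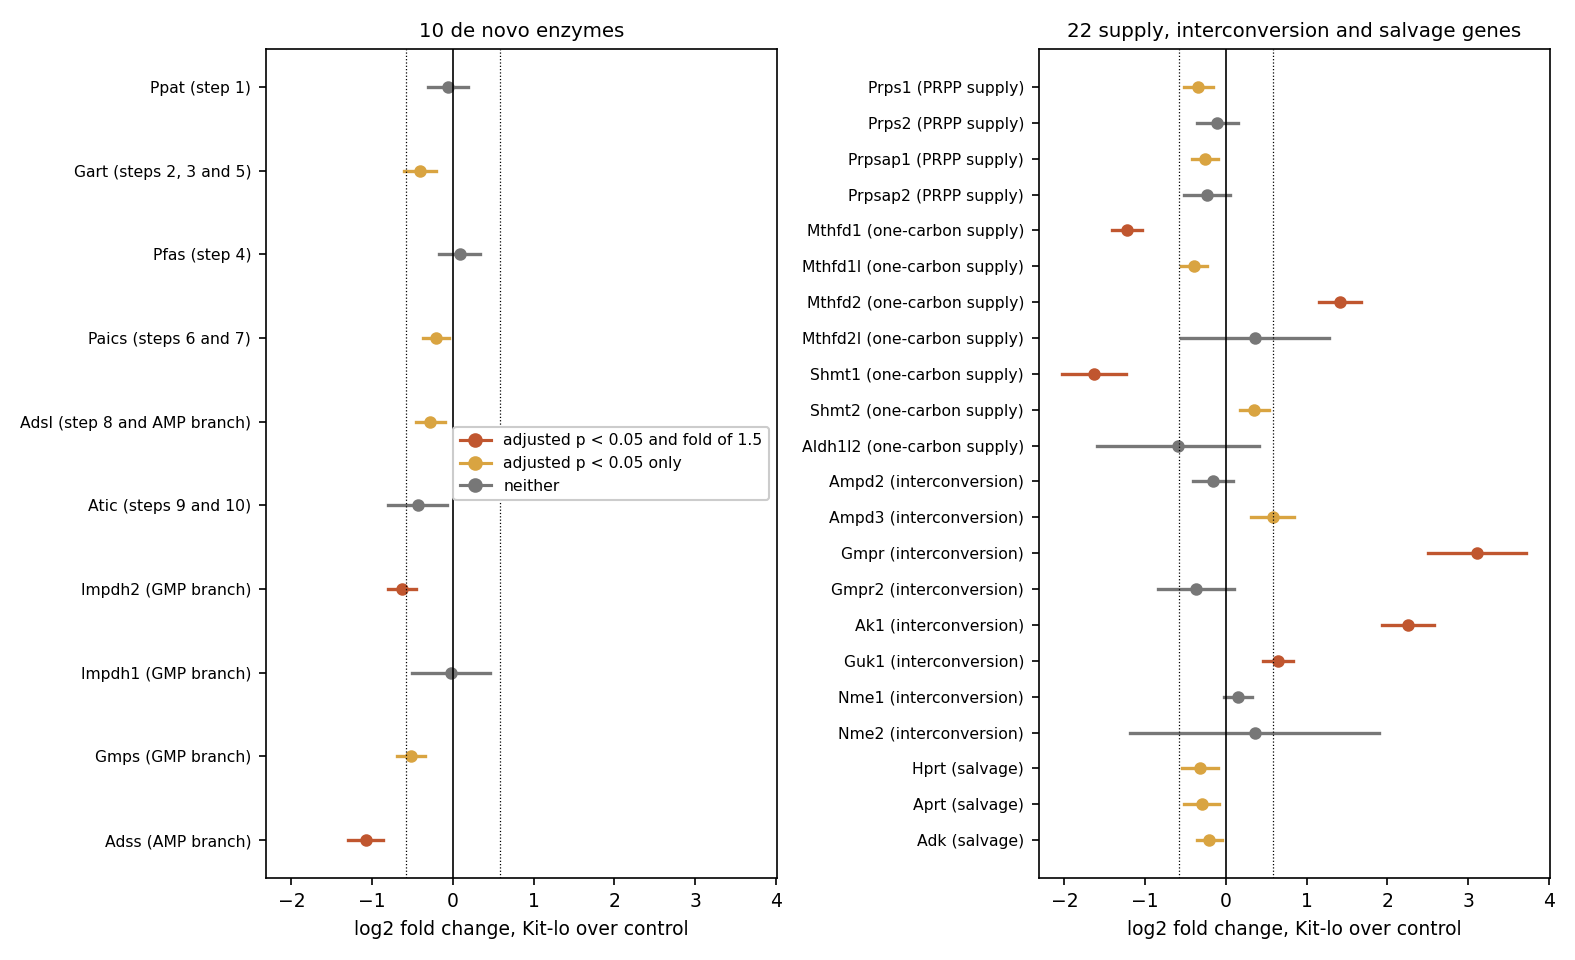
Log2 fold change of CFU-E Kit-lo over control for the 10 de novo enzymes (left) and 22 supply, interconversion and salvage genes (right); points are edgeR estimates from 3 libraries a group, lines their 95% intervals, and dotted lines the fold of 1.5. On the left *Impdh2* and *Adss* pass both thresholds, and on the right the genes past both thresholds range from *Shmt1* at -1.63 to *Gmpr* at 3.11.

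PRPP synthetase makes the starting sugar phosphate. *Prps1*, its main gene here, was 442.5 to 514 CPM in control and 366 to 395 CPM in Kit-lo, and fell by 0.34 on the log2 scale (adjusted p = 0.0080 by edgeR). Of the 4 genes of this group, *Prps1* and the associated-protein gene *Prpsap1* (-0.26, adjusted p = 0.022 by edgeR) were lower on the adjusted p, and 0 passed the fold threshold. Among all genes tested, 16.9% were lower on the adjusted p. *Prps2* was at -0.10 and *Prpsap2* at -0.23, with intervals that included 0.

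Formyl groups for *Gart* and *Atic* come from the folate cycle, and its genes did not move together. *Mthfd1*, the cytosolic trifunctional enzyme that makes 10-formyltetrahydrofolate, was 1985, 1906 and 1982 CPM in the control and 843, 754 and 916 CPM in the Kit-lo libraries, a log2 fold change of -1.22 (SE 0.08, adjusted p = 6.25e-06 by edgeR). *Shmt1*, the cytosolic serine hydroxymethyltransferase, fell by 1.63 on the log2 scale, from between 39.0 and 44.8 CPM in control to between 10.2 and 15.5 CPM in Kit-lo (adjusted p = 9.19e-05 by edgeR). Both were among the genes the study picked from these libraries. The mitochondrial dehydrogenase *Mthfd2* went the other way, from 92.4, 89.5 and 96.4 CPM to 244, 208 and 289 CPM, a log2 fold change of 1.41 (SE 0.12, adjusted p = 1.80e-05). On the adjusted p alone, the mitochondrial *Shmt2* (0.35) was also higher, and the mitochondrial formate producer *Mthfd1l* (-0.39) was lower. *Mthfd2l* and *Aldh1l2* were at 5.22 CPM or less in every library, and their intervals included 0.

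Among genes that interconvert and phosphorylate the products, 9 of 10 were tested, 3 were higher on both thresholds by edgeR and by DESeq2, and 0 were lower by either, also at an unadjusted p under 0.05. Of all genes tested, 12.1% were higher and 9.83% lower on both thresholds. *Gmpr*, which reduces GMP back to IMP, was 3.50, 5.49 and 5.15 CPM in the control and 56.7, 34.3 and 30.8 CPM in the Kit-lo libraries, a log2 fold change of 3.11 (SE 0.27, adjusted p = 2.61e-05 by edgeR). *Ak1*, the adenylate kinase of red cells and muscle, rose from between 8.36 and 9.67 CPM to between 39.2 and 47.0 CPM (log2 fold change 2.26, adjusted p = 4.46e-06). *Guk1*, which phosphorylates GMP, rose by 0.65 on the log2 scale, from between 90.3 and 99.0 CPM to between 149 and 152 CPM (adjusted p = 0.000293). *Ampd3*, the AMP deaminase of red cells, was just outside the fold threshold at 0.58 (adjusted p = 0.0039), and *Nme1*, *Nme2*, *Ampd2* and *Gmpr2* did not pass the adjusted p. *Gmpr* shares 375 exonic bases with *Atxn1* on the opposite strand. The erythroid markers rose in the same libraries, and their part in these values was not tested.

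The salvage genes *Hprt*, *Aprt* and *Adk*, which return free bases and adenosine to the nucleotide pool, were all lower on the adjusted p and did not reach the fold threshold. Their log2 fold changes were -0.32, -0.30 and -0.20, with adjusted p-values between 0.033 and 0.044 by edgeR. Among all genes tested, 16.9% were lower on the adjusted p.

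IP was compared with input in control CFU-E to ask which of these transcripts were recovered in excess by the antibody against m6A. At an adjusted p under 0.05, 2 of the 10 genes, *Pfas* and *Adss*, were higher in IP (7.9% of all genes tested), and 1 of the 10, *Atic*, was lower (7.86% of all genes tested). Both IP libraries lay above both input libraries in 5 of the 10 genes, against 32.2% of all genes tested. The median log2 fold change of IP over input was 0.23 over the 10 genes and 0.06 over all genes tested. Since IP and input were each scaled to their own total, a value below 0 marks less recovery than the average transcript and not an absence of m6A.

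**Figure D3:**
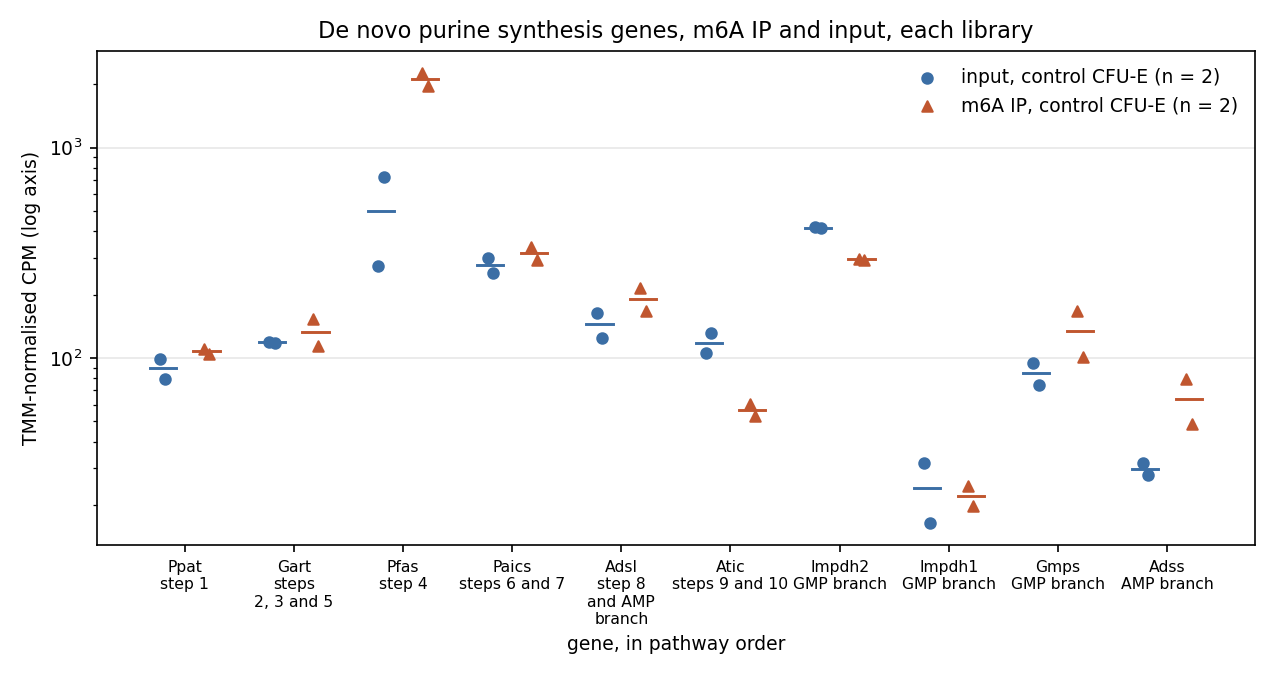
Level of each de novo purine synthesis gene in each input (circles) and m6A IP (triangles) library of control CFU-E, in TMM-normalised CPM on a log axis, with genes in pathway order and bars at the means of 2 libraries. *Pfas* rises from a mean of 497 to 2111 CPM and *Adss* from 29.7 to 64.1 CPM, while *Atic* drops from 118 to 56.7 CPM.

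*Pfas* was 274 and 721 CPM in the 2 input libraries and 2258 and 1964 CPM in the 2 IP libraries. Both IP libraries were far above both inputs, but the inputs themselves differed by 2.63-fold, more than those of any other of the 10 genes. The log2 fold change was 2.09 (SE 0.39, 95% interval 1.22 to 2.95, adjusted p = 0.0059 by edgeR), and 1.28% of all genes tested had one as high or higher. Without input replicate 1 it was 1.53 with an adjusted p of 0.076, and over leaving out each library in turn it ran from 1.53 to 2.94. The level of *Pfas* in input also stood apart from the RNA-seq of control CFU-E, where it was 95.2 to 114 CPM. The 2 experiments were prepared by different protocols and are not on one scale, but the log2 ratio of input to RNA-seq level was 2.17 for *Pfas*, above that of 92.2% of 10773 genes found in both. For the other 9 genes this ratio ran from -2.50 to 0.85.

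*Adss*, which of the 10 genes fell most in Kit-lo cells, was 31.7 and 27.8 CPM in input and 79.6 and 48.5 CPM in IP. The IP libraries were both above the inputs but differed from each other by 1.64-fold. The log2 fold change was 1.11 (SE 0.28, adjusted p = 0.024 by edgeR). The adjusted p was 0.10 without input replicate 1, 0.086 without input replicate 2 and 0.17 without IP replicate 1, and in the last case the log2 fold change was 0.69.

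*Atic* was 105 and 132 CPM in input and 60.6 and 52.8 CPM in IP. Both IP libraries were below both inputs. *Atic* had a log2 fold change of -1.06 (SE 0.23, adjusted p = 0.012 by edgeR), with an adjusted p of 0.088 without input replicate 2.

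The remaining 7 genes did not pass the test. *Gmps* came closest, at 94.8 and 74.2 CPM in input and 168 and 101 CPM in IP, with a log2 fold change of 0.67 and an adjusted p of 0.12 by edgeR that was 0.024 without IP replicate 2. *Impdh2* was 418 and 413.5 CPM in input and 297 and 292 CPM in IP, a log2 fold change of -0.50 whose 95% interval ended at -0.04 (adjusted p = 0.13). *Adsl* was at 0.40, *Ppat* at 0.27, *Paics* at 0.19, *Gart* at 0.17 and *Impdh1* at -0.13, each with a 95% interval that included 0. With 2 libraries a group these intervals were wide: that of *Gart* ran from -0.32 to 0.67.

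Sequence around the letters GGACT is shown for the 3 genes that passed the test. GGAC followed by T, A or C is a common form of the sequence at whose A m6A is laid down. Other forms were not counted, so that the densities below do not cover all possible sites. Each window is 25 bases of the longest coding transcript in GENCODE (GRCm38), read in the direction of the RNA with T for U, around the GGACT nearest the end of the coding part, and capitals mark GGACT. The counts give no position within a transcript, so that these are letter matches and not mapped sites.
Pfas, chr11:68988510-68988534, minus strand, coding: agccaggccaGGACTcccagccaac
Adss, chr1:177776492-177776516, minus strand, coding: tgctcggagtGGACTtcggatgtgt
Atic, chr1:71579082-71579106, plus strand, 424 bases past the coding part: ctaaatgctgGGACTgctctttctt
*Pfas* held 5 GGACT in 6373 bases, *Adss* 1 in 2771 and *Atic* 3 in 2845, which is 0.78, 0.36 and 1.05 per kb. The median over 11419 tested genes with a coding transcript was 1.03 per kb. Counting GGAC followed by T, A or C, the densities were 3.45, 2.17 and 3.16 per kb against a median of 3.53 per kb. The 2 genes higher in IP had fewer of these letters per kb than the gene lower in IP for GGACT, and *Impdh2*, at 2.15 GGACT per kb, had the highest density of the 10.

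For the supply and interconversion genes, 25 were tested in the same comparison: 15 log2 fold changes were below 0 and 10 above, and their median was -0.07. Both IP libraries lay above both inputs in 3 of the 25, against 32.2% of all genes tested, and below both inputs in 9. At an unadjusted p under 0.05 by edgeR, 8 were lower and 2 higher. The shares of all genes for these last counts were not computed, so that no depletion of the list can be read from them. Of the 25, 2 were higher in IP at an adjusted p under 0.05, *Mthfd1* and *Mthfd1l*, and 1 was lower, *Mthfd2l*, against 7.9% and 7.86% of all genes tested. *Mthfd1* was 99.1 and 82.7 CPM in input and 311 and 135 CPM in IP (log2 fold change 1.30, SE 0.34, adjusted p = 0.030 by edgeR). *Mthfd1l* was 12.8 and 11.3 CPM in input and 25.6 and 20.0 CPM in IP (0.92, SE 0.26, adjusted p = 0.041). For both, leaving out either input library or IP replicate 1 took the adjusted p to between 0.058 and 0.23. *Mthfd2l* was 13.8 and 15.8 CPM in input and 6.23 and 3.12 CPM in IP (-1.64, SE 0.35, adjusted p = 0.012).

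Set side by side, *Adss* was the one gene of the 10 that was both higher in IP and lower in Kit-lo cells at the thresholds used here. *Pfas*, with the higher IP recovery, had a log2 fold change of 0.08 in Kit-lo cells, and *Impdh2*, which fell in Kit-lo cells, was not higher in IP. Across the 10 genes the log2 fold changes of the 2 experiments had a Pearson r of 0.12 and a Spearman rho of 0.13. The genes share their libraries and are not independent replicates. In the supply list, *Mthfd1* was likewise higher in IP and lower in Kit-lo cells, and *Shmt1*, lower in Kit-lo cells, had a log2 fold change of -0.38 in IP with an interval that included 0.

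**Figure D4:**
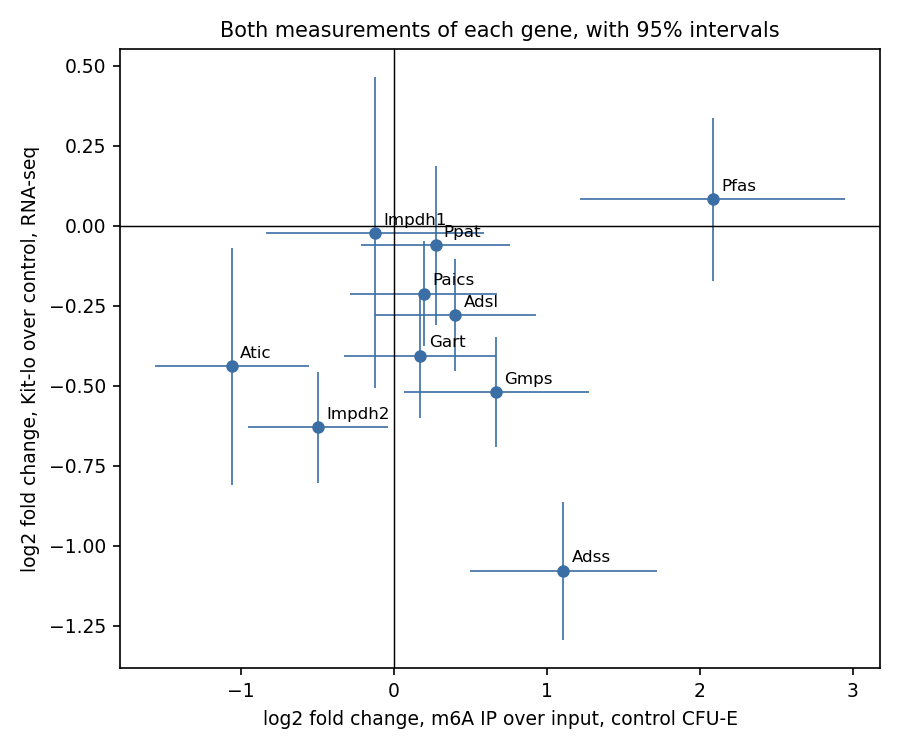
Log2 fold change of m6A IP over input in control CFU-E (horizontal axis, 2 libraries a group) against log2 fold change of CFU-E Kit-lo over control in RNA-seq (vertical axis, 3 libraries a group) for each of the 10 genes, with 95% intervals of edgeR. *Adss* lies at the lower right (1.11 and -1.08), *Pfas* far to the right near 0 on the vertical axis (2.09 and 0.08), and *Atic* to the left (-1.06 and -0.44).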

How the data were processed

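RNA-seq libraries (Smart-seq2, oligo-dT primed) of control CFU-E (n = 3) and of CFU-E Kit-lo cells labelled *Mettl3*-deficient (n = 3), and m6A IP (n = 2) and input (n = 2) libraries of control CFU-E, prepared by SLIM-seq, were analysed. Groups came from the sample labels, and 6 ProE samples were not analysed here. The authors deposited estimated counts per gene without normalization, made, per the submitters' processing notes and the methods, with fastp 0.23.4 and Kallisto 0.48.0 on mm10 and merged to genes with tximport. The notes name GRCm39 as well as mm10. All values were whole numbers, so that rounding changed nothing. The SLIM-seq primer carried an 8-base molecular identifier, whose use in counting, like the strand, was not given in the sources used here. PCR copies are not independent molecules, and replicate spread set the precision.

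Each table was fitted whole in edgeR 4.0.16 (R 4.3.3) with TMM normalization, filterByExpr, glmQLFit and glmQLFTest, without a block, and Benjamini-Hochberg adjustment over all genes tested. The thresholds were the study's, without the TPM filters it set in both comparisons and with edgeR in place of its DESeq2. They were an adjusted p-value under 0.05 and a fold of 1.5 for RNA-seq, and the adjusted p-value alone for IP over input. SE was the absolute log2 fold change divided by the square root of F. The fits were first tested on simulated data. Alternatives were DESeq2 1.42.0, other normalizations, filters and thresholds, a block on replicate number and leaving out each library. The genes named were the 10 members, the genes of the supply list past a threshold, *Mettl3* and *Kit*, and *Myc* and *Atf4*; other genes of the supply list, named to complete their groups, were chosen after their values were seen. Values of 2 genes of the supply list are not reported here, though its counts include them. The members and lists were chosen with earlier results of these data known. Coordinates are GENCODE on GRCm38, shared words 31 bases long (Kallisto's default), and promoters RefSeq on GRCm38.p6. Python 3.11.15 and matplotlib 3.10.9 drew the figures.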

Additional observations from a re-analysis of the deposited data

How the results depend on the processing

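The count of de novo purine genes past both RNA-seq thresholds, 2 (*Impdh2* and *Adss*), was 1 with library sizes alone, 1 with edgeR's test against the fold threshold, 6 with no fold threshold and 1 to 3 when single libraries were left out, the lowest without Kit-lo replicate 2. The count of the supply list, 6, was 15 with no fold threshold. In the m6A comparison the count of de novo genes higher in IP, 2, ran from 0 (without input replicate 1) to 3 on leaving out single libraries, and that of the supply list, also 2, from 0 to 2, and was 1 with library sizes alone. DESeq2 gave the main count in all 4 cases, and the log2 difference in the *Impdh2* to *Impdh1* ratio stayed between -0.81 and -0.36. Estimates that changed sign were all near 0: *Impdh1* in RNA-seq, 0.037 with library sizes alone and -0.27 to 0.15 on leaving out libraries, *Impdh1* in IP, 0.027 with library sizes alone, 0.0024 with upper-quartile factors and -0.53 to 0.40, and, on leaving out libraries only, *Ppat* (-0.16 to 0.065), *Pfas* (-0.027 to 0.17) and *Mettl3* (-0.12 to 0.0027) in RNA-seq and *Gart* (-0.068 to 0.36) in IP. The causes were not tested, except that fewer libraries enter the fits that leave one out.

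Replicate numbers did not mark pairs in RNA-seq, where the deviations of same-numbered libraries correlated at 0.03, -0.02 and -0.07. In the m6A libraries, which the labels do not describe as pairs, the correlation was 0.21. With 2 libraries a group it is the same for both same-numbered pairs by construction. With a replicate block the de novo counts were 2 in RNA-seq and 3 in m6A, where *Gmps* was added (log2 fold change 0.63, adjusted p = 0.0083 by edgeR), and those of the supply list 7 and 2. *Impdh2* then also passed as lower in IP, beside *Atic* (-0.50, adjusted p = 0.021). With 2 libraries a group, the m6A calls are the least secure of those given.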

Other observations

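*Myc* and *Atf4*, transcription factors known to drive genes of purine and one-carbon synthesis, moved in opposite directions between the same RNA-seq libraries. *Myc* was 886, 813.5 and 892 CPM in the control and 749, 702 and 546 CPM in the Kit-lo libraries, with every Kit-lo library below every control library (log2 fold change -0.38, SE 0.11, adjusted p = 0.025 by edgeR's quasi-likelihood test). *Atf4* was 305, 240 and 303 CPM in the control and 320, 415 and 397 CPM in the Kit-lo libraries, with every Kit-lo library above every control library (log2 fold change 0.42, SE 0.12, adjusted p = 0.023). Neither reached the fold threshold of 1.5. In IP over input the log2 fold change was 0.62 for *Myc* and -0.45 for *Atf4*, with adjusted p-values of 0.15 and 0.25.

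The muscle isoenzyme gene *Adssl1*, which was too low to be tested in RNA-seq, was measured in the m6A experiment at 7.27 and 6.69 CPM in input and 4.44 and 3.22 CPM in IP (log2 fold change -0.86, adjusted p = 0.096 by edgeR). *Nme2* was at 0.23 to 1.75 CPM in the RNA-seq libraries and at 59.6 to 118 CPM in the m6A experiment, and 48.9% of its exonic bases are shared with the read-through gene *Gm20390*.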
